A study of Mus musculus with 18 samples.

Results

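The genes described here are 10 regulators of the G1 phase and of the entry into S phase, taken as a fixed list of symbols: the D-type cyclins Ccnd1, Ccnd2 and Ccnd3, their kinases Cdk4 and Cdk6, the brake Rb1 and the transcription factor E2f1 that it holds, and the E-type cyclins Ccne1 and Ccne2 with their kinase Cdk2. They have 21 probe sets on the array, each listed with 1 gene only, out of 22626 probe sets and 12393 named genes in all. A probe set is a group of short probes for 1 transcript, mostly near its 3' end. Only probe sets whose log2 values averaged 4 or more were tested, which left 20 of the 21 (9 of the 10 genes).

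The samples are cultures of mouse embryo fibroblasts, connective tissue cells grown out of embryos, cultured for 2 passages in medium with 10% serum. The arrays fall into 5 groups: 1 line with 3 copies of chromosome 1 (Ts1), 4 lines with 3 copies of chromosome 13 (Ts13), 3 lines with 3 copies of chromosome 16 (Ts16), 1 line with 3 copies of chromosome 19 (Ts19) and 9 lines with normal chromosomes (Wt). Each line has 1 array. The design asks how an extra chromosome alters gene expression. The sources used here name neither the mouse strain, the embryonic age nor how the trisomies were obtained. The labels do not say whether each line came from its own embryo, so a p-value weighs only the spread among these arrays, which may be partly technical. None of the 10 genes lies on chromosome 1, 13, 16 or 19, so none is carried by an extra chromosome.

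In quiescent cells Rb1 binds E2F factors and keeps the genes for DNA replication silent. Growth signals raise D-type cyclins, which with Cdk4 or Cdk6 begin to phosphorylate Rb1. Freed E2F then switches on Ccne1 and Ccne2, whose proteins with Cdk2 complete the inactivation of Rb1 and start S phase. Fibroblasts in culture are a classic system for this pathway, and much of its control lies in protein phosphorylation and protein turnover, which arrays do not measure.

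On assembly GRCm38.p6, Ccnd1 lies on chromosome 7 (144929931 to 144939831), Ccnd2 on chromosome 6 (127125162 to 127152188) and Ccnd3 on chromosome 17 (47505051 to 47599689). Cdk4 lies on chromosome 10 (127063535 to 127067288) and Cdk6 on chromosome 5 (3341004 to 3531008). Rb1 is on chromosome 14 (73192858 to 73325951) and E2f1 on chromosome 2 (154559400 to 154569892). Ccne1 is on chromosome 7 (38097984 to 38107490), Ccne2 on chromosome 4 (11190433 to 11204779) and Cdk2 on chromosome 10 (128697938 to 128705051).

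The 250 bases upstream of the annotated start are shown for 3 genes on which the results turn, from RefSeq on GRCm38.p6, each 5' to 3' on the gene's strand. They were chosen because Cdk2 and Ccne1 are set against the replication genes that E2F drives, while Cdk4 had the lowest adjusted p in Ts13. RefSeq windows matched 6 of the 10 genes. Ccnd1, Ccnd2, Ccne2 and Rb1 had no window. Capitals in the Cdk2 window, chr10:128705052-128705301 on the minus strand, mark 1 match to E2F letters (TTTCCCGC, TTTCGCGC, TTTGGCGC or TTTGCCGC) and 5 to the GC box (GGGCGG). In the Ccne1 window, chr7:38107491-38107740 on the minus strand, capitals mark 4 GC boxes. In the Cdk4 window, chr10:127063285-127063534 on the plus strand, capitals mark 4 E-boxes (CACGTG), the letters that Myc proteins can bind. That window also holds 1 GC box, left in lower case.
Cdk2: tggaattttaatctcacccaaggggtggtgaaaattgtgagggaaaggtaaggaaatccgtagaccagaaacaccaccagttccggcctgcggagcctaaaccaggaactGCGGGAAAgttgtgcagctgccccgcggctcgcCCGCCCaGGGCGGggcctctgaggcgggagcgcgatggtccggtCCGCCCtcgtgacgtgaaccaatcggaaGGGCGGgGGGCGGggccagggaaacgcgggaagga
Ccne1: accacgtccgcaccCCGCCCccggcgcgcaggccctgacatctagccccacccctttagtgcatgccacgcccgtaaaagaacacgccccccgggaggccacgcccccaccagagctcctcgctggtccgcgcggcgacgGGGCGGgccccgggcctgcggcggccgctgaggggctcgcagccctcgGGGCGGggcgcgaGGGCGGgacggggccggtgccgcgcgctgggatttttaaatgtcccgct
Cdk4: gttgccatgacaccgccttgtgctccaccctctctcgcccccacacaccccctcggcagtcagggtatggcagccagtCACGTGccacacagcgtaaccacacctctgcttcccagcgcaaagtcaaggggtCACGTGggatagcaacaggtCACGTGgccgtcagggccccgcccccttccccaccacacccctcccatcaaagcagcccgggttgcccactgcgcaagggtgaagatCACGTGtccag

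All letters were searched on both strands. Of 32851 upstream windows of the same length in the table, 1.9% held at least 1 of the E2F words, 6.0% an E-box and 32.7% a GC box. In the other windows, Ccnd3 had 2 GC boxes at 1 start and 1 at the other, E2f1 had 4 GC boxes, and Cdk6 had 1 E-box. None of the E2F words was in the windows of Ccnd3, Ccne1, Cdk4, Cdk6 or E2f1. The windows of E2f1 (chr2:154569427-154569676) and Cdk6 (chr5:3343643-3343892) lie inside the gene spans given above. They belong to inner starts, and the sequence upstream of the outer ends of these genes was not searched. A match describes letters in a window and is not evidence of binding.

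The arrays are of uneven RNA quality, which touches many of the values below. For the Gapdh controls, the signal at the 3' end minus that at the 5' end, a common measure of RNA quality, was 6.94 in Ts13 replicate 3, 5.57 in Ts13 replicate 4 and 6.55 in Ts16 replicate 1 on the log2 scale. It lay between -0.20 and 1.41 on the other 15 arrays, all 9 Wt arrays among them. The first 3 arrays are called 3'-biased here, and results are also given without them. All 12 fibroblast markers passed the level filter, with list means of 12.46 to 13.20 in Ts13, 13.14 to 13.71 in Ts16 and 12.39 to 13.66 in Wt. Of 9 macrophage markers 2 passed it, with list means up to 6.11 in Ts13 (replicate 4) and up to 5.07 in Wt, and 0 of 6 endothelial markers did. All 5 smooth muscle markers passed it too, with list means of 10.3 to 11.0 in Ts13, 10.7 to 11.3 in Ts16 and 10.2 to 11.9 in Wt. So did 2 of 6 neural, 1 of 6 epithelial and 1 of 5 skeletal muscle markers, and 0 of 3 measured erythroid ones. The part of macrophage RNA in the values of Ts13 replicate 4 was not tested.

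On all 18 arrays, 0 probe sets of these genes passed the test in any trisomy. A probe set that missed the threshold may still differ, most of all in Ts1 and Ts19 with 1 array each. In Ts13 minus Wt, 0 of 20 probe sets had an adjusted p under 0.05 (limma, Benjamini-Hochberg over all 11714 probe sets tested, two-sided), against 1.08% of all probe sets. At an unadjusted p under 0.05, 8 of the 20 passed (40%), against 21.3% of all probe sets. The 8 were probe sets of Ccnd2, Ccnd3, Cdk4 and Rb1 alone, and probe sets of the same gene are not independent. Their mean on the 3'-biased arrays minus that of the other 15 arrays ran from -2.97 to -0.66 for Ccnd2, Ccnd3 and Cdk4. For Rb1 it was 1.41. The median log2 fold change was -0.31 over the 20 probe sets and -0.03 over all 11714. Without Ts13 replicate 2, where 2 of the 3 Ts13 arrays left are 3'-biased, 8 of the 20 passed (40%), against 9.66% of all probe sets (1131, against 126 on all arrays). The ranges of Ts13 and Wt overlapped for all 20, whereas 1.65% of all probe sets lay wholly above and 0.931% wholly below Wt.

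In Ts16 minus Wt, 0 of 20 passed, against 0.0341% of all probe sets, and at an unadjusted p under 0.05 also 0 of 20, against 6.12%. The median was -0.04 over both the 20 and all probe sets, and the ranges of all 20 overlapped with those of Wt (0.939% of all probe sets lay wholly above and 0.418% wholly below). In Ts1 minus Wt, 0 of 20 passed (0.0341% of all), and 0 at an unadjusted p under 0.05 (5.85% of all). In Ts19 minus Wt, 0 of 20 passed (0.0% of all), and 0 at an unadjusted p under 0.05 (1.61% of all). The 9 trisomic arrays together against Wt gave 0 of 20 (0.0341% of all), and 0 at an unadjusted p under 0.05 (6.8% of all).

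**Figure D1:**
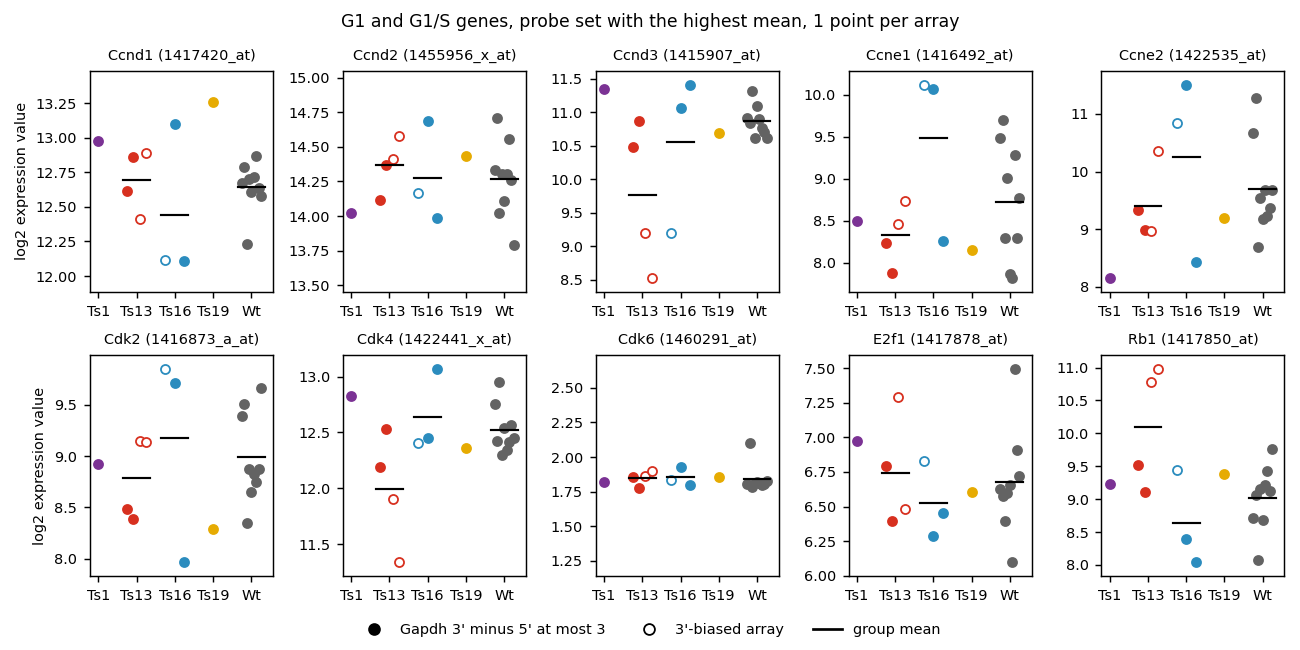
Log2 expression value of the probe set with the highest mean for each of the 10 genes, with the groups Ts1, Ts13, Ts16, Ts19 and Wt on the horizontal axis, 1 point per array, a bar for the group mean, and open circles for the 3'-biased arrays. In every panel the ranges of Ts13 and Ts16 overlap with that of Wt, although for Ccnd1 2 Ts16 points lie below and 1 above all Wt points, and Rb1 is highest on 2 open circles of Ts13, at 10.78 and 10.98.

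Ccnd1, the D-type cyclin that many growth factors induce in fibroblasts, had high values throughout. By 1417420_at it was at 12.98 in Ts1, at 12.61, 12.86, 12.41 and 12.89 in Ts13, at 12.12, 13.10 and 12.11 in Ts16, at 13.26 in Ts19, and between 12.23 and 12.87 in Wt with a median of 12.67. The single Ts1 and Ts19 arrays, Ts16 replicate 2 and, by a small margin, Ts13 replicate 4 were above every Wt array, and 2 Ts16 arrays were below every Wt array. In Ts13 its log2 fold change was 0.05 ± 0.17 (SE; adjusted p = 0.879), -0.20 ± 0.19 in Ts16 (adjusted p = 0.848), 0.34 ± 0.30 in Ts1 (adjusted p = 1) and 0.62 ± 0.30 in Ts19 (adjusted p = 1), all by limma. The second probe set, 1448698_at, gave 0.07 ± 0.21 in Ts13 and 0.27 ± 0.23 in Ts16.

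The third Ccnd1 probe set, 1417419_at, told the arrays apart in another way. It stood at 8.92 in Ts1, at 11.00, 11.33, 8.14 and 9.08 in Ts13, at 6.92, 11.53 and 10.41 in Ts16, at 11.74 in Ts19, and from 8.22 to 11.47 in Wt with a median of 10.89. The 3'-biased arrays held 3 of its 5 lowest values, and the others were Wt replicate 9 (8.22) and the Ts1 array. The Gapdh difference was 1.41 in Wt replicate 9 and 0.60 in the Ts1 array, against 0.69 in Wt replicate 7, where the probe set read 11.03. Its log2 fold change in Ts13 was -0.63 ± 0.79 on all arrays and 0.64 ± 0.66 without the 3'-biased ones, so its sign turned.

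Ccnd2, the second D-type cyclin, had 7 probe sets, and these fell into sets by their values on the 3'-biased arrays. On the 3'-biased arrays 1455956_x_at, 1416122_at, 1434745_at and 1416124_at stood within 0.29 of the mean of the other 15 arrays, at 0.12, -0.22, -0.08 and -0.29. The other 3 stood far below it, at -1.30 for 1430127_a_at, -2.21 for 1448229_s_at and -2.97 for 1416123_at. In the last of these Ts13 read 11.01, 10.95, 7.34 and 8.56, Ts16 read 9.15, 12.45 and 10.85, and Wt read 10.60 to 12.26 with a median of 10.96. The 3 lowest of its 18 values were those of the 3'-biased arrays.

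The tests of Ccnd2 followed that division. In Ts13 the 1416123_at probe set had a log2 fold change of -1.76 ± 0.64 (limma, adjusted p = 0.158) on all arrays and -0.24 ± 0.41 without the 3'-biased ones. With 1448229_s_at it was -1.24 ± 0.48 (adjusted p = 0.173), and -0.15 ± 0.32 without them. The 4 probe sets within 0.29 of the other arrays lay between -0.07 and 0.10 in Ts13, with 1434745_at at -0.04 ± 0.10 (95% interval -0.26 to 0.17). In Ts16 the same probe set was at 0.16 ± 0.11, and the widest Ccnd2 difference was that of 1416124_at, 0.58 ± 0.42 (adjusted p = 0.84). Without the 3'-biased arrays that difference was 1.08 (adjusted p = 0.563), and with Ts16 and Wt replicates 1 to 3 as pairs 0.04 (adjusted p = 0.953). The suffixes _s_at and _x_at mark probe sets whose probes can also match related transcripts.

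Ccnd3, the third D-type cyclin, has 1 probe set. It stood at 11.34 in Ts1, at 10.47, 10.87, 9.20 and 8.53 in Ts13, at 9.20, 11.06 and 11.40 in Ts16, at 10.69 in Ts19, and between 10.62 and 11.31 in Wt with a median of 10.84. The 3 lowest of the 18 values were those of the 3'-biased arrays. In Ts13 its log2 fold change was -1.09 ± 0.41 (limma, adjusted p = 0.162), and without the 3'-biased arrays it was -0.19 ± 0.20 (adjusted p = 0.861). In Ts16 it was -0.31 ± 0.45 on all arrays and 0.37 ± 0.20 without the 3'-biased arrays, so its sign turned.

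**Figure D2:**
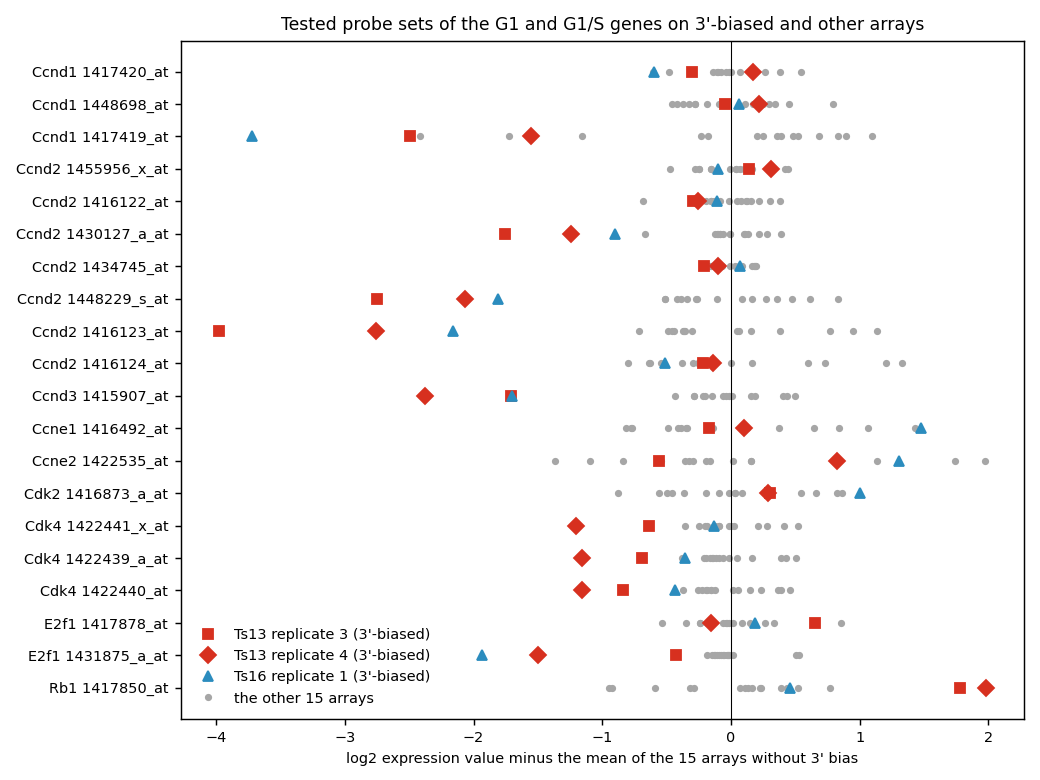
Log2 expression value minus the mean of the 15 arrays without 3' bias, for each of the 20 tested probe sets, with grey points for those 15 arrays and coloured markers for Ts13 replicates 3 and 4 and Ts16 replicate 1. The coloured markers lie below all grey points for 6 probe sets (3 of Ccnd2, and 1 each of Ccnd3, Cdk4 and E2f1), and for Rb1 both Ts13 markers lie above all grey points.

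Of the 20 probe sets, 6 had all 3 of the 3'-biased arrays below the other 15 (30%), against 13.7% of all tested probe sets, and 0 had all 3 above (7.03% of all). A shift of more than 0.5 below the mean of the other arrays was found for 9 of the 20 (45.0%; 29.7% of all), and one of more than 0.5 above it for 3 (15%; 29.3% of all). The 9 are of Ccnd1, Ccnd2, Ccnd3, Cdk4 and E2f1, and the 3 are of Ccne2, Cdk2 and Rb1.

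Cdk4, the kinase partner of the D-type cyclins in fibroblasts, had 3 probe sets that ran alike. By 1422439_a_at it was at 12.40 in Ts1, at 11.63, 11.86, 11.32 and 10.85 in Ts13, at 11.66, 11.92 and 12.52 in Ts16, at 11.82 in Ts19, and between 11.80 and 12.44 in Wt with a median of 11.95. All 4 Ts13 values were below the Wt mean, and 3 of them below every Wt array. By that probe set the log2 fold change in Ts13 was -0.59 ± 0.19, with the lowest adjusted p of the 20 probe sets (0.123, limma). The other probe sets gave -0.53 ± 0.19 (1422441_x_at, adjusted p = 0.154) and -0.55 ± 0.22 (1422440_at, adjusted p = 0.175).

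Without the 3'-biased arrays the 3 Cdk4 probe sets were at -0.26, -0.17 and -0.10 in Ts13, in the order just given. Scaling the arrays to a common median moved the median of all probe sets to 0.27 in Ts13, and the Cdk4 values to -0.29, -0.24 and -0.25. On the deposited scale they lay between -0.09 and 0.12 in Ts16, none with an adjusted p under 0.913. Ts16 replicate 3 and Wt replicate 3, which share a first title number and a replicate number, had the highest Cdk4 values by 1422439_a_at, 12.52 and 12.44.

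Cdk6, the other kinase of the D-type cyclins, was listed between 1.78 and 2.10 on all 18 arrays by its only probe set. It stayed below the filter and was not tested. A low value of 1 probe set does not show that the transcript is missing.

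Rb1, which restrains E2F and is what the D-type cyclin kinases act on, was highest in Ts13. It read 9.23 in Ts1, 9.52, 9.10, 10.78 and 10.98 in Ts13, 9.45, 8.40 and 8.05 in Ts16, 9.38 in Ts19, and 8.07 to 9.76 in Wt with a median of 9.13. All 4 Ts13 arrays were above the Wt mean of 9.02, but those above every Wt array were the 3'-biased replicates 3 and 4. Rb1 had a log2 fold change of 1.07 ± 0.38 in Ts13 (2.10-fold; 95% interval 0.27 to 1.87; limma, adjusted p = 0.15), and without the 3'-biased arrays 0.29 ± 0.34 (adjusted p = 0.89).

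Against the mean of the Wt arrays with the same first title number (1 or 2 arrays), Rb1 differed by 0.36, 0.16, 1.83 and 1.55 in Ts13 replicates 1 to 4. Ts13 replicate 2, at 9.10, was below Wt replicate 6 of the same number, at 9.22. In Ts16 the corresponding differences were 1.06, -0.66 and -0.34. The Ts16 log2 fold change from Wt was -0.39 ± 0.42 (limma, adjusted p = 0.866), and -0.80 ± 0.34 without the 3'-biased arrays (adjusted p = 0.564). Set directly against each other, Ts13 was above Ts16 by 1.46 ± 0.48 (adjusted p = 0.132).

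In the direct comparison of Ts13 with Ts16, 0 of 20 probe sets passed (1.42% of all) and 4 had an unadjusted p under 0.05 (20%; 16.8% of all). The 4 were Rb1, the Cdk4 probe sets 1422441_x_at (-0.65 ± 0.24) and 1422439_a_at (-0.62 ± 0.24), and Ccne1 (-1.15 ± 0.52). Their adjusted p-values were 0.132, 0.185, 0.202 and 0.272 by limma. With the Gapdh 3' minus 5' difference as a covariate, Rb1 alone of the 20 passed, at 1.23 (adjusted p = 0.03), against 4.43% of all probe sets, a share near 1 in 20. Both comparisons with Wt share the same 9 Wt arrays.

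E2f1, the activating factor that Rb1 restrains and that cyclin E genes respond to, had low to moderate signals. By 1417878_at it was at 6.98 in Ts1, at 6.79, 6.40, 7.29 and 6.49 in Ts13, at 6.83, 6.29 and 6.45 in Ts16, at 6.61 in Ts19, and between 6.10 and 7.49 in Wt with a median of 6.62. Every trisomic value lay inside the Wt range. The log2 fold change was 0.07 ± 0.26 in Ts13 (limma, adjusted p = 0.898; 95% interval -0.48 to 0.61) and -0.15 ± 0.28 in Ts16 (adjusted p = 0.914; 95% interval -0.75 to 0.45). The second probe set, 1431875_a_at, was at 4.24 to 5.75 on the 3'-biased arrays and at 5.99 to 6.71 on the other 15.

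**Figure D3:**
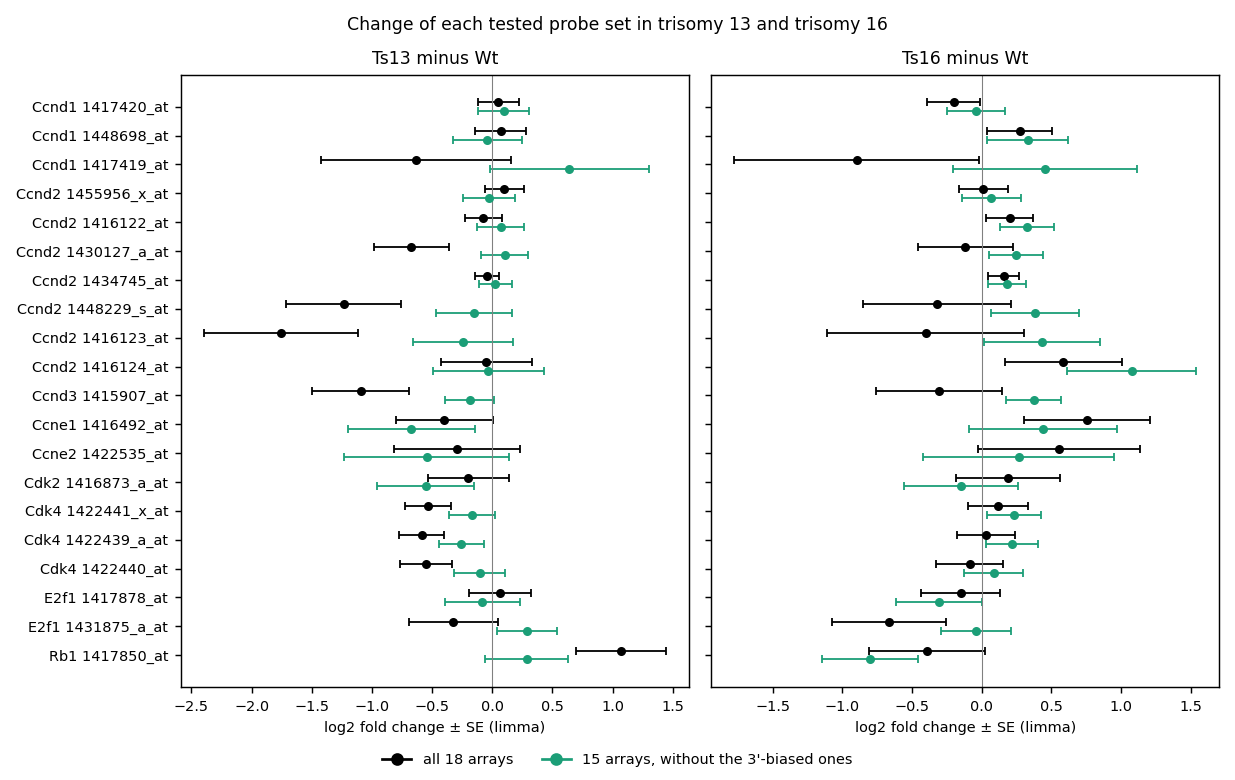
Log2 fold change with its SE from limma for the 20 tested probe sets in Ts13 minus Wt (left) and Ts16 minus Wt (right), on all 18 arrays (black) and on the 15 arrays without 3' bias (green). In Ts13 the black values of Cdk4, Ccnd3, 3 Ccnd2 probe sets and Rb1 lie farther from 0 than the green ones, such as 1.07 against 0.29 for Rb1.

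Ccne1, the E-type cyclin that E2F switches on, varied widely within groups. It was at 8.50 in Ts1, at 8.23, 7.87, 8.46 and 8.74 in Ts13, at 10.11, 10.07 and 8.25 in Ts16, at 8.15 in Ts19, and between 7.82 and 9.70 in Wt with a median of 8.76. The highest 2 of the 18 values were Ts16 replicates 1 and 2, and the Ts13 values lay in the lower part of the Wt range. The log2 fold change was -0.40 ± 0.41 in Ts13 (limma, adjusted p = 0.576) and 0.75 ± 0.45 in Ts16 (adjusted p = 0.839). In bulk cultures, fewer cells in a phase and less RNA per cell cannot be told apart.

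Ccne2, the second E-type cyclin, spanned 3.34 log2 units over the 15 arrays without 3' bias. It was at 8.16 in Ts1, at 9.34, 8.98, 8.97 and 10.35 in Ts13, at 10.84, 11.50 and 8.44 in Ts16, at 9.20 in Ts19, and between 8.69 and 11.27 in Wt with a median of 9.54. The Ts1 and Ts16 replicate 3 values were below every Wt array, and Ts16 replicate 2 was above every Wt array. The log2 fold change was -0.29 ± 0.52 in Ts13 (limma, adjusted p = 0.765), 0.56 ± 0.58 in Ts16 (adjusted p = 0.864) and -1.54 ± 0.92 in Ts1 (adjusted p = 0.995).

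Cdk2, the kinase that cyclin E activates, was at 8.93 in Ts1, at 8.48, 8.39, 9.15 and 9.14 in Ts13, at 9.85, 9.71 and 7.97 in Ts16, at 8.29 in Ts19, and between 8.35 and 9.67 in Wt with a median of 8.87. Ts16 held the 2 highest values and the lowest one. The log2 fold change was -0.20 ± 0.34 in Ts13 (limma, adjusted p = 0.747; 95% interval -0.91 to 0.51) and 0.19 ± 0.37 in Ts16 (adjusted p = 0.918; 95% interval -0.60 to 0.98).

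For the cyclin E genes and Cdk2, replicates 1 and 3 of number 89 differed widely in Ts16 and in Wt. Trisomic and Wt arrays share a first number, and no label says what it marks. Under number 89, Ts16 replicate 1 exceeded Ts16 replicate 3 by 2.40 in Ccne2, 1.86 in Ccne1 and 1.88 in Cdk2. In the same order, Wt replicate 1 exceeded Wt replicate 3 by 1.98, 1.19 and 1.04, although both are normal lines of 1 number. Under number 780, Wt replicates 5 and 6 differed by -0.51, 0.04 and -0.18. Of the arrays in these differences, Ts16 replicate 1 alone is 3'-biased. The 3'-biased arrays averaged 0.52 above the other 15 for Ccne2, 0.47 for Ccne1 and 0.53 for Cdk2. The part of RNA quality in the Ts16 differences was not tested.

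Ts16 replicates 1, 2 and 3 resembled the Wt replicates of the same replicate number. Over all tested probe sets their deviations from the group means correlated at 0.50, 0.48 and 0.62, so these arrays were also compared in pairs. For each Ts16 array this was the highest value with any Wt array. Yet Ts13 replicate 2 and Wt replicate 3, which share no number, reached 0.53. Ts16 and Wt arrays of number 89 with unlike replicate numbers were at -0.54 and -0.58. The deviations of the 3 Ts16 arrays from their own mean sum to 0, so negative values partly follow from the centring. They cannot show whether arrays of number 89 are alike. The pairs were thus chosen from these same data. The paired differences in Ccne2 were 0.17, 0.23 and -0.25, and in Ccne1 0.63, 0.37 and -0.04. The first of each, and the paired fit, include the 3'-biased Ts16 replicate 1. With the pair as a block the Ts16 log2 fold change was 0.32 ± 0.22 for Ccne1 (limma, adjusted p = 0.638), 0.05 ± 0.18 for Ccne2 and 0.09 ± 0.24 for Cdk2, and 0 of 20 probe sets passed.

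**Figure D4:**
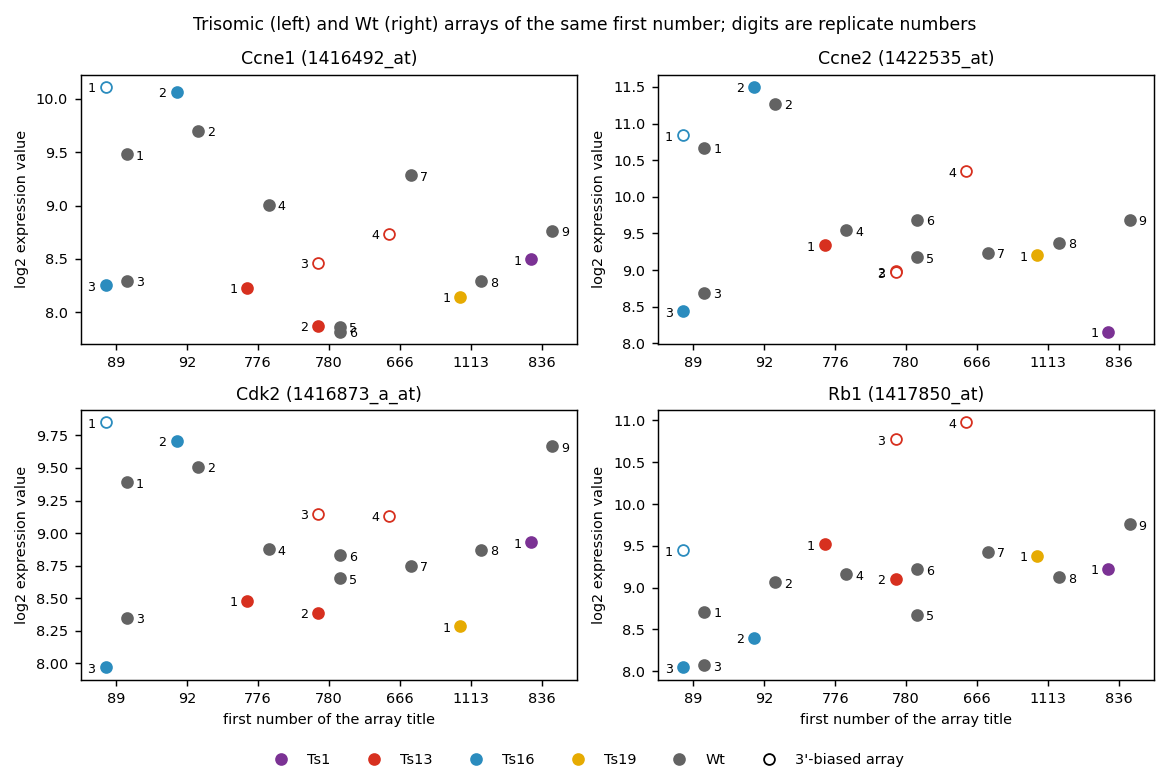
Log2 expression values of Ccne1, Ccne2, Cdk2 and Rb1 by the first number of the array title, with trisomic arrays at the left and Wt arrays at the right of each number, digits for replicate numbers and open circles for 3'-biased arrays. Under number 89 replicate 1 is high and replicate 3 low in Ts16 and in Wt for Ccne1, Ccne2 and Cdk2, such as 10.84 and 8.44 in Ts16 and 10.67 and 8.69 in Wt for Ccne2.

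Other genes of the pathway were read from lists. The list of S-phase genes that E2F drives held 18 tested genes, and in Ts13 2 of them fell, 0 rose (0.324% and 0.751% of all probe sets) and 16 of 18 lay below 0. Those that fell encode parts of the helicase that opens DNA for replication, Mcm5 (-2.23 ± 0.44, limma, adjusted p = 0.021) and Mcm3 (-1.03 ± 0.23, adjusted p = 0.0457). Lig1, which joins DNA ends, was at -1.03 ± 0.25 (adjusted p = 0.0569) and Pcna, the clamp of the replicating polymerases, at -1.30 ± 0.35 (adjusted p = 0.0802). The list median was -0.58, against -0.03 over all probe sets.

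Neither call held with the first title number as a block (0 of 18 called) or without the 3'-biased arrays, where Mcm5 was at -1.07 ± 0.34 (adjusted p = 0.35) and Mcm3 at -0.80 ± 0.30 (adjusted p = 0.434). All 18 genes were then below 0, with a list median of -0.69 and 0 called. Over 30 alternatives the adjusted p ran from 0.00919 to 0.527 for Mcm5 and from 0.0315 to 0.663 for Mcm3. Both calls were lost without Ts13 replicate 3 or Ts13 replicate 4, and that of Mcm3 also without any 1 of the 9 Wt arrays and on a common median (adjusted p = 0.117). Without Ts13 replicate 2, 5 of the 18 fell, against 7.25% of all probe sets. In Ts16 0 of 18 passed, 16 of 18 lay above 0 and the median was 0.28, against -0.04 over all probe sets. Without the 3'-biased arrays the Ts16 median was 0.04, with 9 of 18 above 0. Values below Wt were not particular to Ts13. The list median was -1.12 in Ts1 (17 of 18 below 0) and -0.45 in Ts19 (16 of 18 below 0), with 1 array each. Over all probe sets the medians there were 0.03 and -0.07.

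The other lists held 0 calls in Ts13 and in Ts16. Among cyclins and kinases of later phases (9 tested, median -0.89 in Ts13), the mitotic kinase Cdk1 was at -1.26 ± 0.37 (adjusted p = 0.104) and its partner Ccna2 at -1.09 ± 0.36 (adjusted p = 0.13) in Ts13, by limma. Without the 3'-biased arrays that median was -0.17, and without Ts13 replicate 2, 2 of the 9 and 1 of the 7 CDK inhibitors fell, also against 7.25% of all probe sets. Among CDK inhibitors (7 tested, median -0.40 in Ts13), Cdkn2d was at -2.05 ± 0.63 (adjusted p = 0.115) and Cdkn2b, an inhibitor of Cdk4 and Cdk6, at 0.57 ± 0.18 (adjusted p = 0.124) in Ts13. Both values include the 3'-biased Ts13 replicates 3 and 4. Without the 3'-biased arrays the median of the CDK inhibitors was -0.53 in Ts13. Pocket proteins with E2F and DP factors (10 tested) had a median of 0.03 in Ts13 and 0.25 in Ts16. Both medians turned sign without the 3'-biased arrays, to -0.23 in Ts13 and -0.18 in Ts16.

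Some genes of these lists lie on an extra chromosome, and all of those on chromosomes 13 and 16 are given here for their position. On chromosome 13, in Ts13, were the activating factor E2f3 at 0.50 ± 0.22 (limma, adjusted p = 0.216), the CDK-activating kinase Cdk7 at 0.54 ± 0.19 (adjusted p = 0.152), its cyclin Ccnh at 0.30 ± 0.14 (adjusted p = 0.243) and Cks2 at 0.05 ± 0.30. CDK activation (10 tested) had medians of -0.10 in Ts13 and 0.01 in Ts16. On chromosome 16, in Ts16, Rfc4, a subunit of the clamp loader, was at 1.09 ± 0.32 (limma, adjusted p = 0.354), Mcm4, another helicase part, at 0.54 ± 0.42 (adjusted p = 0.84), and Gsk3b, a kinase that marks cyclin D1 for degradation, was at 0.42 ± 0.50 (adjusted p = 0.877). Genes of cyclin turnover (9 tested) had medians of 0.02 in Ts13 and 0.06 in Ts16. Both turned sign without the 3'-biased arrays, to -0.09 in Ts13 and -0.05 in Ts16. The values of single genes in this paragraph include the 3'-biased arrays.

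The mean log2 value of the 18 E2F target genes gives each culture a level of replication genes. It was 9.23 in Ts1, 9.66, 9.38, 9.47 and 9.65 in Ts13, 11.00, 11.13 and 9.59 in Ts16, 9.85 in Ts19, and from 9.79 to 11.14 in Wt with replicates 1 and 2 highest, at 11.14 and 10.79. All 4 Ts13 arrays, the Ts1 array and Ts16 replicate 3 were below every Wt array. The level was set against each of the 9 tested members over the 15 arrays without 3' bias, 9 relations in all, with p-values adjusted over the 9. Each member was taken only by its probe set with the highest mean, which for Ccnd2 is 1455956_x_at, 1 of 7. How many of all genes would pass in the same way was not counted.

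On these 15 arrays, 3 (Wt replicates 1 and 2 and Ts16 replicate 2) lay apart from the other 12. Over those 12, Ccne2 had Pearson's r of 0.74 and Spearman's rho of 0.73 (permutation p = 0.00653 and 0.00882, adjusted p = 0.0588 and 0.0794). Ccne1 had an r of 0.42 and a rho of 0.31, and Cdk2 an r of 0.36 and a rho of 0.38 (adjusted permutation p of 0.385 and 0.389 for r, and of 0.497 and 0.412 for rho). No relation thus passed within the 12 arrays.

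With the 3 high arrays included, r was 0.90 for Ccne2 (rho 0.85; permutation p = 4e-05, adjusted p = 0.00036), 0.81 for Ccne1 (rho 0.64; adjusted permutation p = 0.0018), 0.71 for Cdk2 (rho 0.63; adjusted permutation p = 0.00972) and 0.63 for Ccnd2 (rho 0.59; adjusted permutation p = 0.0254). By rho Ccnd2 did not pass (adjusted permutation p = 0.0508), and over all 18 arrays its r was 0.40 (adjusted permutation p = 0.218). Without the 2 farthest from the median, Wt replicate 1 and Ts16 replicate 2, Ccne2 alone passed (r = 0.84, adjusted permutation p = 0.00306), with Ccne1 at an r of 0.65 (adjusted permutation p = 0.0693) and Cdk2 at 0.55 (adjusted permutation p = 0.121). Ccnd1, Ccnd3, Cdk4, E2f1 and Rb1 had r between -0.21 and 0.21 over the 15 arrays. The other Ccnd1 probe sets were not set against the level, and the choice of probe set matters for this gene. With Ccne1, r over the 15 arrays was 0.27 for 1417420_at, the one used, 0.69 for 1448698_at and -0.02 for 1417419_at.

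Within first title numbers, as deviations from each number's mean over 14 arrays, r was 0.98 for Cdk2 and 0.94 for Ccne2 (exact permutation p = 0.00174 each, the smallest that 576 arrangements can give, adjusted p = 0.00781) and 0.88 for Ccne1 (exact permutation p = 0.0156, adjusted p = 0.0469). The same was done with ranks over the 14 arrays, as deviations from each number's mean rank. The coefficients were 0.94, 0.91 and 0.71, and that of Ccne1 did not pass (exact permutation, adjusted p = 0.214). Leaving out number 89, which holds Wt replicates 1 and 3 and Ts16 replicate 3, left 11 arrays with r of 0.95 for Cdk2, 0.83 for Ccne2 and 0.65 for Ccne1. Their exact permutation p-values were 0.0104, 0.0312 and 0.104, with adjusted values of 0.0938, 0.141 and 0.312. Since 0.0104 is the smallest p that the 96 arrangements left can give, no single relation of the 9 could pass alone there, and the missed threshold says nothing about the stability of Cdk2. Over the 9 Wt arrays alone r was 0.84 for Ccne2 and 0.77 for Ccne1 (exact permutation, adjusted p = 0.0485 for both), and 0.58 for Cdk2 (exact permutation, adjusted p = 0.224). Their rho was 0.67, 0.72 and 0.52, and none of these passed (exact permutation, adjusted p = 0.133, 0.13 and 0.291).

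**Figure D5:**
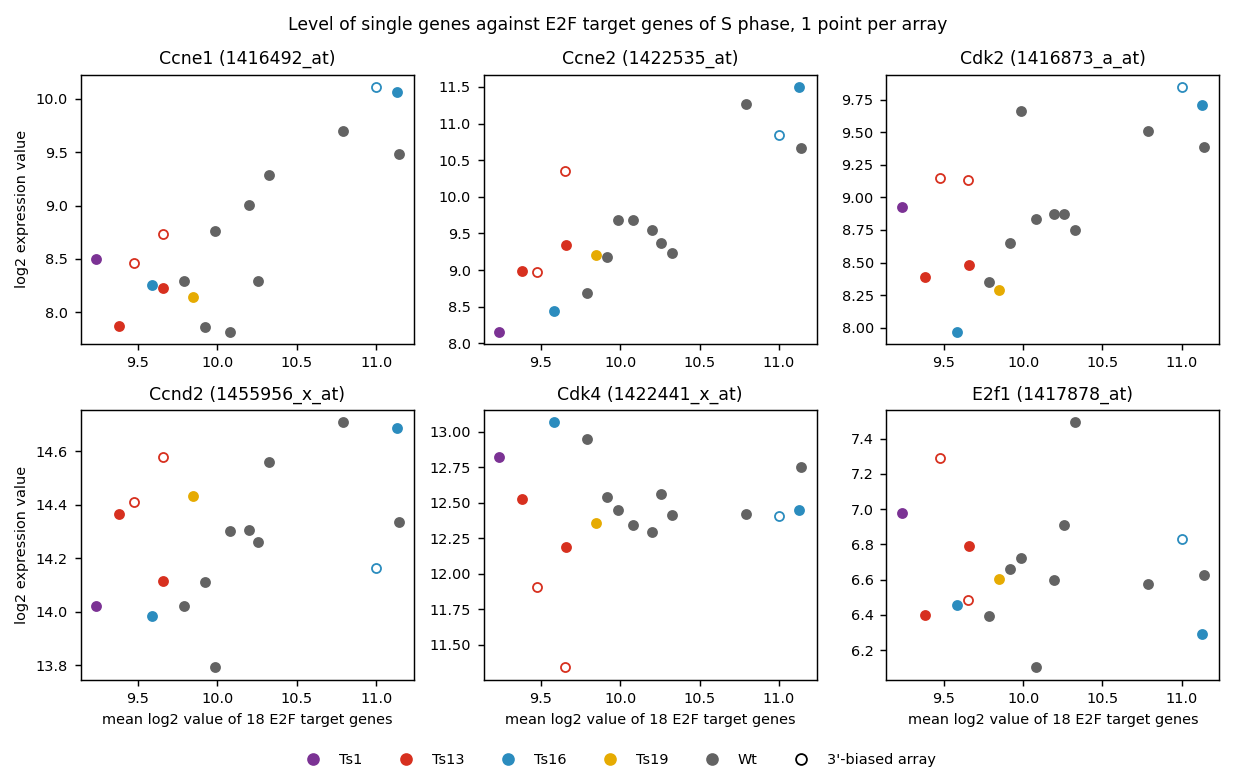
Log2 expression value of single genes (vertical axis) against the mean log2 value of 18 E2F target genes of S phase (horizontal axis), 1 point per array, coloured by group, with open circles for the 3'-biased arrays. Each gene is shown by its probe set with the highest mean. The 3 rightmost filled points are high on the vertical axis for Ccne2, Ccne1 and Cdk2, while Cdk4 and E2f1 had r of -0.21 and -0.07 over the 15 filled points.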

How the data were processed

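The deposited log2 values were used: per the submitters' processing notes the authors made them with affy and GCRMA, with versions not given in the sources used here, and per the labels' protocols 5 ug of total RNA was taken per array. The table has 22690 probe sets, of which 64 are controls. Of the others, 20380 list 1 gene, 691 several and 1555 none, by GEO's platform annotation. For 20351 of the 20380 the Entrez ID matched RefSeq on GRCm38.p6. The 10 members and all gene lists were chosen with earlier results of these data known, and so was the limit of 3 on the Gapdh 3' minus 5' difference.

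Probe sets with 1 gene and a mean of at least 4 (11714) were fitted with limma 3.58.1 in R 4.3.3 (lmFit, eBayes with trend) on 5 groups, and p-values were adjusted by Benjamini-Hochberg, with 0.05 as threshold. All 18 arrays entered, so single-array groups borrow the spread of the others. The fit was tested on simulated data with independent arrays. It called 31.8% of the changes of 1 log2 unit in Ts13 and 27.2% in Ts16. Of changes of 2 log2 units it called 75.2% and 68.4%. The shares were far lower in Ts1 and Ts19, so a missed call there says little. Correlations used permutations (100000 or exact, two-sided) in Python 3.11.15 with scipy 1.17.1, numpy 2.4.6 and pandas 2.3.3, and figures matplotlib 3.10.9. The number of arrays limits the precision. All members are described, list genes by order of p (up to 4) or for lying on an extra chromosome, the second added after values were seen.

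Same-numbered Ts16 and Wt replicates 1 to 3 also share a first title number, and their deviations correlated at 0.50, 0.48 and 0.62, so they were treated as pairs in an alternative. Ts13 and Wt replicates of the same replicate number correlated at -0.27, 0.10, -0.37 and -0.24 and were not taken as pairs. They share no first title number, so these values cannot show whether arrays of the same first number are alike. Ts13 and Wt arrays that do share a first number correlated between -0.10 and 0.32. Alternatives changed the filter, the scaling, the variance model, the block and the arrays.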

Additional observations from a re-analysis of the deposited data

Results flagged for a closer look

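Of 42 groups of values examined for a single distant array, 5 held one by Dixon's criterion, where chance gives about 1 in 20. All 5 are Wt arrays. Ccnd1 by 1417420_at was lowest in Wt replicate 3, at 12.23, with the next Wt array at 12.58. Ccnd2 was lowest in Wt replicate 9 by 2 probe sets, at 13.47 by 1416122_at, with the next at 14.00, and at 13.47 by 1430127_a_at, with the next at 14.03. E2f1 by 1431875_a_at was highest in Wt replicate 7, at 6.71, with the next at 6.16. Cdk6 was highest in Wt replicate 2, at 2.10, with the next at 1.83, both below the level asked for testing.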

How the results depend on the processing

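In Ts13 against Wt, leaving out 1 array at a time gave 0 to 8 called probe sets of these genes, all 8 without Ts13 replicate 2: Rb1 at 1.40 (limma, adjusted p = 0.0369) rose, and Ccnd3 at -1.46 (adjusted p = 0.0392), 3 Ccnd2 and 3 Cdk4 probe sets fell. Calls over all probe sets then numbered 1131, against 126 on all arrays, 323 without Ts13 replicate 1, 30 without replicate 3 and 21 without replicate 4, 11 without the 3'-biased arrays, 41 with the Gapdh covariate and 205 without a filter. Over 30 alternatives Rb1 in Ts13 ran from 0.24 to 1.40. With the Gapdh covariate 1 probe set passed in Ts13 against Ts16 (Rb1, 1.23), with 519 calls in all, against 166. Of 9 relations to E2F targets 4 passed on 15 arrays, 2 on Wt arrays only, 1 without the 2 farthest arrays, and 0 without the 3 highest arrays (an alternative chosen after seeing the data). The share of all genes that would pass was not counted, so these relations are not shown to be particular to these genes.

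With the first title number or the replicate number as a block, 0 probe sets of these genes passed in any comparison, and calls over all probe sets in Ts13 were 4, against 126 without a block. Under the block on first title numbers the relations to E2F targets that passed numbered 3, and 0 without number 89 (also chosen after seeing the data), where the 96 arrangements left let no single relation pass alone. The paired fit of Ts16 changed no call of these genes, and calls over all probe sets were 0, against 4. A common median moved the median of all probe sets by 0.29 in Ts13 and 0.20 in Ts16, and 13 of 110 calls in Ts13 were then lower, against 38 of 126. Without a filter, calls over all probe sets were 75 in Ts1 and 57 in Ts19. Ccnd2, with an r of 0.63 on 15 arrays, was at -0.44 in that fit without number 89. No called fold change turned its sign. The causes of these changes were not tested.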

Other observations

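Over the 15 arrays without 3' bias, the genes whose log2 values ran most like each member's were listed by Pearson's r among 7381 genes, as a description that shares the same arrays and takes the highest of many values. Every gene was taken by its probe set with the highest mean. Nearest to Ccne1 were Mms22l (r = 0.92), Kif23 (0.91) and Wee1 (0.91), of which Wee1 encodes a kinase that holds back mitosis and Kif23 a motor of cell division. Nearest to Ccne2 were Hspa14 (0.96), Cdc20 (0.96), an activator of the ubiquitin ligase of mitosis, and Anln (0.95), a protein of the contractile ring. Nearest to Cdk2 were Xpo1 (0.94), Smc2 (0.94), a condensin subunit, and Cenpf (0.93), a kinetochore protein.

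Nearest to Ccnd3 were Uvrag (0.89), Lpcat3 (0.86) and Cdk4 (0.86), and nearest to Cdk4 were Hoxb3 (0.93), Entpd6 (0.93) and Uvrag (0.90). Nearest to Rb1 were Mtss1 (0.93), Usp53 (0.93) and Trpc1 (0.92). Ccnd1 ran most like Klhdc8a (0.86), Ccnd2 like Polr2f (0.87) and E2f1 like Zmiz2 (0.85). Among the members themselves, r was 0.76 for Ccne1 and Ccne2, 0.74 for Ccne1 and Cdk2, and 0.78 for Ccne2 and Cdk2.

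Of the CDK inhibitors, Cdkn2a, which also encodes the p53 activator Arf, had a log2 fold change of -2.22 ± 1.02 in Ts16 (limma, adjusted p = 0.803) and 1.18 ± 0.92 in Ts13 (adjusted p = 0.456). Both values include the 3'-biased arrays.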
